A study of Homo sapiens with 4 samples.

Results

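S100 proteins are small calcium-binding proteins that work as dimers and carry a pair of EF hands, the helix-loop-helix motif that holds a calcium ion. Calcium binding opens a surface through which most of them bind partner proteins such as annexins, ezrin or non-muscle myosin, and several are also released from cells and act on receptors at the cell surface. In pancreatic ductal adenocarcinoma, family members including S100P, S100A4, S100A6, S100A11 and S100A14 are known as tumor markers. Here, 10 S100 genes were chosen by symbol (S100A2, S100A3, S100A4, S100A6, S100A10, S100A11, S100A13, S100A14, S100A16 and S100P) out of 16878 genes in the expression tables, and all 10 were found.

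RNA-seq was performed in PANC-1, an established human pancreatic cancer cell line, to ask which transcripts depend on SIRT1, an NAD-dependent protein deacetylase. Cells transfected with siRNA against SIRT1 (siSIRT1, 2 libraries) were compared with transfected controls (Control, 2 libraries), and RNA was taken 48 h after transfection in both groups. The labels do not say what the controls received, and nothing says that the libraries of a group came from separate cultures, so the p-values measure only the spread between these libraries, which may be technical. The study lists a single siRNA for SIRT1, so that effects of the target and of that particular siRNA cannot be told apart.

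Values are FPKM, that is, fragments divided by transcript length and by the total mapped in that library. Changes were tested with limma on log2(FPKM + 1) over the 12191 genes whose mean reached 1 FPKM, with Benjamini-Hochberg adjustment over all of them and a threshold of 0.05. SIRT1 itself was at 10.46 and 10.25 FPKM (Control) against 1.80 and 2.05 FPKM (siSIRT1), a log2 fold change of -1.96 ± 0.11 (SE; limma adjusted p = 1.33e-05). Depths estimated from the values were 8380000 to 8810000 reads per library, and Pearson's r across genes was 0.995 within Control, 0.993 within siSIRT1 and 0.967 to 0.971 between the groups. Of the epithelial keratins, KRT8, KRT18 and KRT19 were at 312.82 FPKM or more in every library and KRT7 at 2.89 to 4.04 FPKM. The 3 acinar markers PRSS1, CPA1 and CELA3A, the endocrine marker CHGA, and the 3 fibroblast markers PDGFRB, DCN and LUM were at 0.15 FPKM or less, and the 3 endothelial markers PECAM1, CDH5 and VWF at 0.75 FPKM or less. Among the 3 leukocyte markers, PTPRC was at 0.97 to 1.29 FPKM and overlapped between the groups (limma adjusted p = 0.774). CD14 was at 5.11 and 5.49 FPKM (Control) against 4.45 and 3.17 FPKM (siSIRT1), with no overlap, and did not pass the test (limma adjusted p = 0.0613), although it did in 6 of the 10 alternative settings. ITGAM, below the expression filter, was at 0.12 and 0.15 FPKM (Control) against 0.74 and 1.09 FPKM (siSIRT1), also with no overlap. The part of these markers in the S100 values was not tested. In bulk RNA, fewer cells with a transcript and less of it per cell cannot be told apart.

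Levels of the S100 transcripts covered a wide range in PANC-1 cells. In Control, S100A6 was the most abundant, followed by S100A11, S100A10, S100A4, S100A16, S100A13, S100A3 and S100A2, with no overlap between neighbours in this order, and S100P and S100A14 came last with overlapping values. These included 6 genes, S100A6, S100A11, S100A10, S100A4, S100A16 and S100A13, that reached 30 FPKM or more in every library, while the other 4 stayed under 10 FPKM. By mean FPKM, S100A6 lay at the 99.4th percentile of the genes tested, S100A11 at 99.1, S100A10 at 98.3 and S100A4 at 96.8. In siSIRT1 the ranges of S100A11 and S100A6 overlapped at the top, S100A13 stood above S100A16, and S100P overlapped with S100A2.

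Of the 10 genes, 9 were tested, 4 were higher in siSIRT1 (S100A10, S100A11, S100A13 and S100P) and 2 were lower (S100A4 and S100A16). S100A2, S100A3 and S100A6 did not pass the test, and S100A14 was below the expression filter. Over all genes tested, 37.1% passed the test, 24.0% as higher and 13.1% as lower, so that passing it was common in this comparison. The groups did not overlap for 7 of the 9 tested S100 genes, against 69.0% of all genes tested. The median log2 fold change was 0.20 over the tested S100 genes, against 0.07 over all genes tested, and 0.27 with S100A14 included. Over the 893 tested genes with the short transcripts of this family, 434 to 1172 bases, the median was 0.22. Of these, 43.8% were higher and 7.84% lower. The median of the tested S100 genes thus lay near that of genes of their length. S100P passed the filter only through its siSIRT1 values, so its place among the higher genes followed in part from the filter. With 2 libraries a group, an exact permutation test of any single gene cannot go below p = 0.333.

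**Figure D1:**
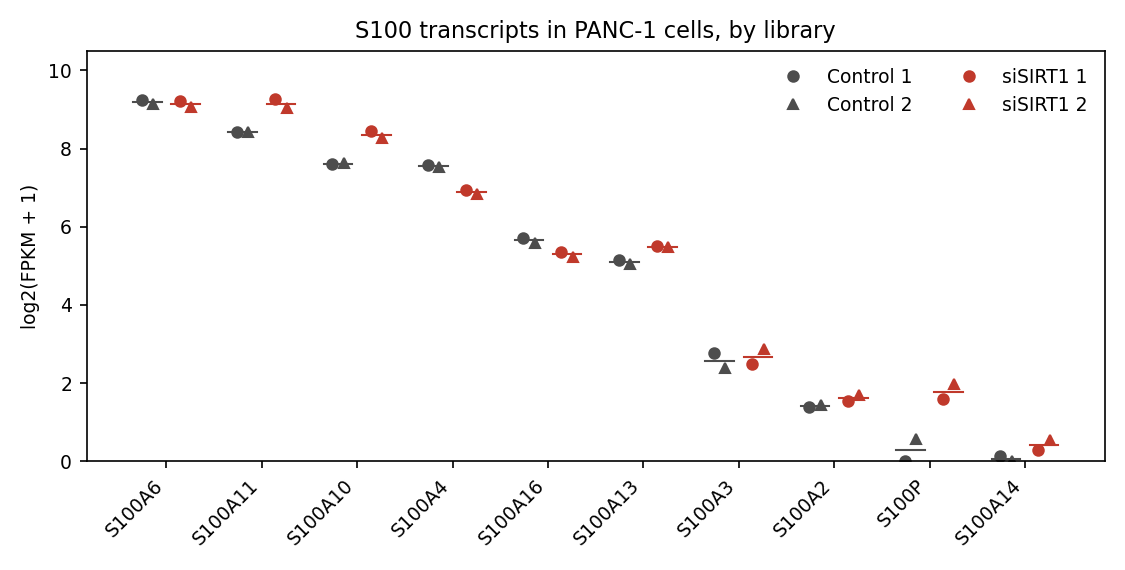
Levels of the 10 S100 transcripts, as log2(FPKM + 1), in the 2 Control libraries (grey) and the 2 siSIRT1 libraries (red), with circles for library 1, triangles for library 2 and short lines for group means. S100A11 and S100A10 sit higher in both siSIRT1 libraries, S100A4 and S100A16 sit lower, and S100A6 overlaps between the groups.

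S100A10 and S100A11, both known as annexin partners, rose together. S100A10, also called p11, is the calcium-independent member that pairs with annexin A2 at the plasma membrane, where the complex binds plasminogen. It was at 192.1 and 195.5 FPKM (Control) against 350.8 and 305.0 FPKM (siSIRT1). Both siSIRT1 libraries were above both Control libraries, and the mean went from 194 ± 2.38 to 328 ± 32.3 FPKM (SD, n = 2). The log2 fold change of S100A10 was 0.75 ± 0.07 (SE; limma adjusted p = 0.000168). S100A11, or calgizzarin, binds annexin A1 and takes part in membrane repair and keratinocyte growth control. Its values were 341.2 and 343.3 FPKM (Control) against 613.2 and 519.8 FPKM (siSIRT1). Again the groups did not overlap, and the spread was larger in siSIRT1 (567 ± 66.0 FPKM) than in Control (342 ± 1.46 FPKM; SD, n = 2). The log2 fold change of S100A11 was 0.72 ± 0.08 (SE; limma adjusted p = 0.000334). Both genes passed the test under each of the 10 alternative settings and without any single library. The S100A11 value is uncertain in one respect, since RefSeq names 10 pseudogenes of it and the sources used here do not say how reads shared with such copies were assigned.

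S100A4 changed in the opposite direction. S100A4, known as metastasin, binds the non-muscle myosin heavy chain MYH9 and is associated with cell motility and invasion. It was at 191.6 and 184.7 FPKM (Control), close to S100A10, against 121.1 and 113.1 FPKM (siSIRT1). The 2 siSIRT1 libraries lay below both Control libraries, and the mean went from 188 ± 4.85 to 117 ± 5.64 FPKM (SD, n = 2). The log2 fold change was -0.68 ± 0.06 (SE; limma adjusted p = 0.000105), and S100A4 passed the test under all 10 alternatives and without any single library. S100A16, a broadly expressed member with weak calcium binding, fell by less. Its values were 51.15 and 47.36 FPKM (Control) against 39.70 and 36.73 FPKM (siSIRT1), and the groups did not overlap. The log2 fold change of S100A16 was -0.36 ± 0.07 (SE; limma adjusted p = 0.0048), and without Control replicate 1 it was -0.30 and no longer passed (limma adjusted p = 0.0645).

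On the genome, 9 of the 10 genes lie on chromosome 1 and S100P lies on chromosome 4. Places are given for GRCh37 with GENCODE release 44, since the tables carry no coordinates. Outermost on one side of the chromosome 1 group were S100A10 (Entrez 6281, 151955391 to 151966335) and S100A11 (6282, 152004982 to 152020383). The other 7 lay close together, namely S100A6 (6277, 153507075 to 153508720), S100A4 (6275, 153516089 to 153522612), S100A3 (6274, 153519805 to 153521734), S100A2 (6273, 153533584 to 153540366), S100A16 (140576, 153579362 to 153585621), S100A14 (57402, 153586731 to 153589462) and S100A13 (6284, 153591263 to 153603836). All 9 are on the minus strand. S100P (6286) lies at 6695605 to 6698897 of chromosome 4 on the plus strand. The annotated span of S100A3 lies within that of S100A4 on the same strand, and S100A13 overlaps S100A1 on the opposite strand over 3435 bases. Whether strand was used in the counting is not stated, so reads in the overlap of S100A13 and S100A1 may be shared between these genes. For S100A3 and S100A4 strand cannot separate the reads. The start site that RefSeq lists for S100A4 borders 153518283, short of S100A3, so their overlap rests on the GENCODE span.

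The promoters of S100A10, S100A11 and S100A4 are shown because these are the 3 abundant genes with the largest changes, a pair that rose and a single gene that fell. Each sequence holds the 250 bases before a start site that RefSeq lists, in the direction of transcription. The sequences come from a RefSeq table built on GRCh38.p14, and their places were found by exact match in GRCh37, all on the minus strand. Capitals mark GGGCGG (the GC box) in S100A10 and S100A11 and TATAAA (the TATA box) in S100A4.
S100A10, chr1:151966336-151966585: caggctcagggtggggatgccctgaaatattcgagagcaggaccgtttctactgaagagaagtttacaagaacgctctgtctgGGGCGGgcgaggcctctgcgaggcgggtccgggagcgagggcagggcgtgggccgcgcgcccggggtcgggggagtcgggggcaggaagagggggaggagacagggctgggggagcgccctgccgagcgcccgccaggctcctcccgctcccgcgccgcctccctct
S100A11, chr1:152009481-152009730: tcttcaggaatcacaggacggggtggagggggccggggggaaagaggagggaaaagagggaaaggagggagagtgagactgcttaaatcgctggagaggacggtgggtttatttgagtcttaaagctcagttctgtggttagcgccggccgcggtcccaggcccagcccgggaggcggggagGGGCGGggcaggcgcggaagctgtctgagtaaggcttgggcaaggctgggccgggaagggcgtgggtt
S100A4, chr1:153518283-153518532: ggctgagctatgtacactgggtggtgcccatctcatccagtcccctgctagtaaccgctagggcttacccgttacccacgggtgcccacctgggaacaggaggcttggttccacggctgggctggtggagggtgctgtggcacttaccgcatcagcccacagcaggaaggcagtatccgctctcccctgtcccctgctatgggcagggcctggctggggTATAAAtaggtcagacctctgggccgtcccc

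These promoters differed in CpG content. The ratio of observed to expected CpG was 0.786 for S100A10 and 0.741 for S100A11, and 0.284 for S100A4, against a median of 0.558 over 35116 promoters of this length. S100A6, which did not pass the test, had a ratio of 0.803, and the first of 3 listed start sites of S100A13 had 0.838, so a high ratio was not particular to the genes that rose. The other start sites of S100A13 had 0.407 and 0.358. The start sites of S100A2, S100A3, S100A14, S100A16 and S100P had ratios of 0.0496 to 0.305. Letters were searched on both strands without regard to overlap between motifs. GGGCGG, held by 42.6% of all promoters, was present once each in S100A10, S100A11, S100A3, the first start site of S100A13 and the second of S100A16, and 3 times in S100A6. It was thus found at genes that rose, at one that fell and at some that did not pass the test, and not in S100A4. TATAAA was present in S100A4, with its first base 31 bases before the start, in S100P at 28 bases and at the second start site of S100A13 at 29 bases, against 10.7% of all promoters. TGANTCA (the AP-1 site; 6.57% of all promoters) was found at S100A3 and at the first start site of S100A2, and CCAAT (32.0%) at S100A3, at the second start site of S100A13 and at the second of S100A16. A match is a description of these letters only.

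S100A6 and S100A13 gave results that depended on transcript length. S100A6, or calcyclin, binds CACYBP and SUGT1 and is linked to the cell cycle and to stress responses. It was at 604.2 and 564.9 FPKM (Control) against 596.6 and 531.9 FPKM (siSIRT1), and the groups overlapped. The log2 fold change was -0.05 with a 95% interval of -0.23 to 0.12 (limma adjusted p = 0.629). S100A13, which helps to release FGF1 from cells without a signal peptide, was at 34.75 and 32.31 FPKM (Control) against 44.23 and 43.75 FPKM (siSIRT1). The groups did not overlap, and S100A13 rose with a log2 fold change of 0.38 ± 0.07 (SE; limma adjusted p = 0.00254).

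The 10 S100 transcripts are short, with canonical lengths of 434 to 1172 bases, and length moved with the change between the groups. Over the 893 tested genes of that length, the median log2 fold change was 0.22, and 43.8% were higher and 7.84% lower in siSIRT1, while of 10597 longer genes 22.4% were higher and 13.4% lower. With the smooth trend on length removed from each library, S100A6 had a log2 fold change of -0.38 (limma adjusted p = 4.7e-05) and S100A13 one of 0.07 (limma adjusted p = 0.425). S100A10 (0.50, limma adjusted p = 4.24e-05), S100A11 (0.44, 9.46e-05), S100A4 (-0.98, 3.17e-07) and S100A16 (-0.53, 0.000127) kept their direction and passed the test in that fit. S100P had a log2 fold change of 1.19 (limma adjusted p = 0.00263). From S100A4 at the bottom to S100P at the top, the 9 changes had the same order in both fits.

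**Figure D2:**
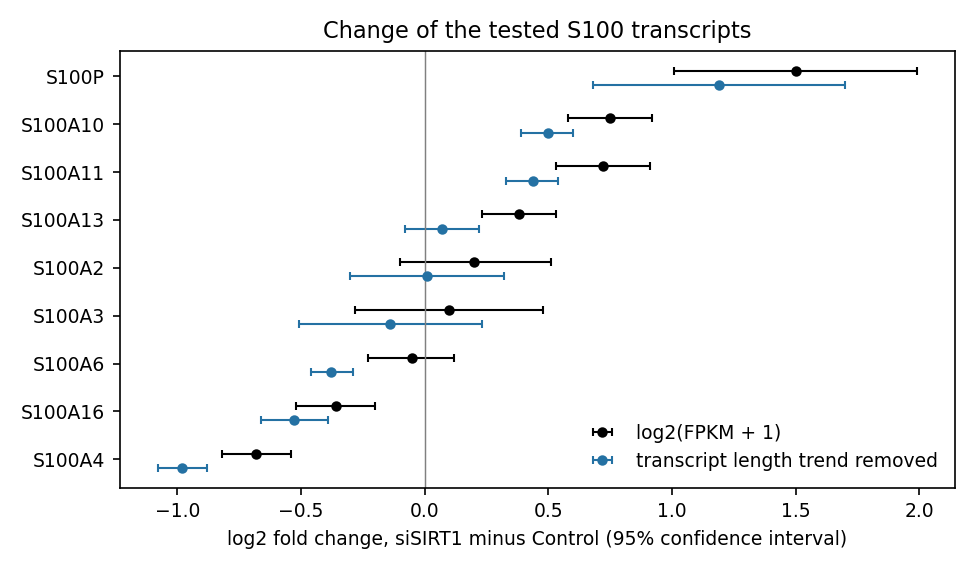
Log2 fold change, siSIRT1 minus Control, of the 9 tested S100 transcripts with 95% confidence intervals, from log2(FPKM + 1) (black) and with each library's trend on transcript length removed (blue). The intervals of S100A10, S100A11 and S100P stay above 0 and those of S100A4 and S100A16 below 0 in both fits, while S100A6 and S100A13 lie clear of 0 in 1 of the 2 fits. S100P reached the expression filter only through its siSIRT1 values.

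The members with low values rested on few reads. S100P, which is found at high levels in many pancreatic tumors and binds ezrin, IQGAP1 and the receptor AGER, had values of 0 and 0.48 FPKM (Control) against 2.02 and 2.94 FPKM (siSIRT1). By the estimated depths these were about 0, 1.9, 7.5 and 11.2 reads. The ratio of summed reads, 19 against 2, was 9.76 with a 95% counting interval of 2.36 to 86.4 after allowing for depth. The limma log2 fold change was 1.5 ± 0.21 (SE), with a limma adjusted p of 0.000985. S100P reached the expression filter only through its siSIRT1 values, so this p-value is not separate support for a rise. The fit also takes values from so few reads as ordinary ones. S100A14, an epithelial member, was at 0.11 and 0 FPKM (Control) against 0.23 and 0.45 FPKM (siSIRT1). These values stood for about 1, 0, 2 and 4 reads, and the ratio of the sums, 6.17, had a counting interval of 0.748 to 284, so that no difference could be detected with so few reads. Such intervals cover counting error only.

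S100A2 and S100A3 did not pass the test. S100A2, a mostly nuclear member of squamous and basal epithelia, was at 1.62 and 1.72 FPKM (Control) against 1.92 and 2.24 FPKM (siSIRT1). The groups did not overlap, but the log2 fold change of 0.20 had an interval of -0.10 to 0.51 (limma adjusted p = 0.267). S100A3, a cysteine-rich member best known from the hair cuticle, was at 5.79 and 4.25 FPKM (Control) against 4.60 and 6.29 FPKM (siSIRT1). Its groups overlapped (log2 fold change 0.10, interval -0.28 to 0.48, limma adjusted p = 0.684).

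Together the 10 transcripts made up 1423 and 1374 FPKM (Control) against 1774 and 1562 FPKM (siSIRT1). Both siSIRT1 sums were above both Control sums (1.19-fold, exact permutation p = 0.333, the smallest that 2 against 2 allows). These sums keep the trend on transcript length, and tested genes of this length had a median log2 fold change of 0.22. The sum was not computed with that trend removed, so whether it rose beyond genes of this length was not tested. As a share of all FPKM the sum was 0.354% and 0.346% (Control) against 0.416% and 0.383% (siSIRT1). S100A6, S100A11, S100A10 and S100A4 held 93.4 to 94.8% of the sum in each library. Within it, the share of S100A6 was 42.5% and 41.1% (Control) against 33.6% and 34.0% (siSIRT1). S100A11 held 24.0% and 25.0% (Control) against 34.6% and 33.3% (siSIRT1). The share of S100A4 was 13.5% and 13.4% (Control) against 6.83% and 7.24% (siSIRT1).

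Ratios within a library do not depend on the scaling between libraries. The 3 ratios given here were chosen after the values were seen, and they have no test of their own. S100A11 stood at 0.565 and 0.608 times S100A6 in Control and at 1.03 and 0.977 times in siSIRT1. S100A10 was at 1.00 and 1.06 times S100A4 in Control and at 2.90 and 2.70 times in siSIRT1. S100A13 was at 0.679 and 0.682 times S100A16 in Control and at 1.11 and 1.19 times in siSIRT1. In each case the 2 libraries of a group lay close to each other and away from the other group.

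**Figure D3:**
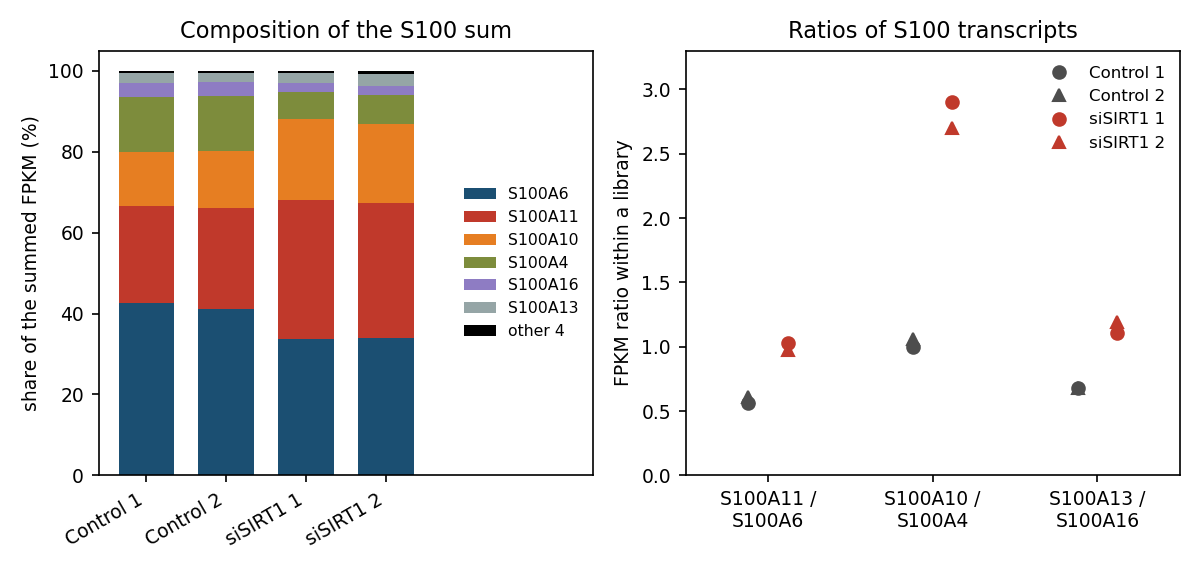
Left, share of each S100 transcript in the summed FPKM of all 10, in percent, for each library. Right, ratios of FPKM within a library for 3 pairs of S100 transcripts, with Control in grey and siSIRT1 in red; the ratio of S100A10 to S100A4 is 1.00 and 1.06 (Control) against 2.90 and 2.70 (siSIRT1).

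Annexins and scaffold proteins that bind S100 dimers were described next. Of 6 such genes, 3 rose, 1 fell and 2 did not pass the test, where 37.1% of all genes tested passed. Their median log2 fold change was 0.19 against 0.07 over all genes tested. ANXA1, the annexin bound by S100A11, was at 39.31 and 37.90 FPKM (Control) against 79.11 and 75.25 FPKM (siSIRT1), and rose with a log2 fold change of 0.98 ± 0.06 (SE; limma adjusted p = 1.9e-05). ANXA6, a membrane-organizing annexin, rose from 26.4 ± 0.262 to 45.6 ± 0.0495 FPKM (SD, n = 2; limma adjusted p = 6.73e-05). ANXA11 rose by a smaller amount (log2 fold change 0.20, limma adjusted p = 0.0297). It passed in only 4 of the 10 alternative settings, and not under median-of-ratios scaling (adjusted p = 0.244). ANXA2, the partner of S100A10, was at 1508.64 and 1481.52 FPKM (Control) against 1732.07 and 1650.75 FPKM (siSIRT1) (log2 fold change 0.18, limma adjusted p = 0.0954). Its groups did not overlap, and it passed as higher in 3 of the 10 alternative settings. The ratio of ANXA2 to S100A10 was 7.85 and 7.58 (Control) against 4.94 and 5.41 (siSIRT1). AHNAK, a large scaffold that binds the complex of S100A10 and annexin A2, was at 266.26 and 271.11 FPKM (Control) against 150.38 and 198.15 FPKM (siSIRT1), and fell with a log2 fold change of -0.64 ± 0.11 (SE; limma adjusted p = 0.00265). DLC1, a GTPase-activating protein bound by S100A10, had a log2 fold change of 0.06 (limma adjusted p = 0.699).

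Intracellular targets of S100 proteins changed in both directions. Of 8 described here, 3 rose, 1 fell and 4 did not pass the test, where 37.1% of all genes tested passed. Their median log2 fold change was 0.15 against 0.07 over all genes tested. CACYBP, the target of S100A6 in ubiquitin ligase assembly, rose from 15.9 ± 0.148 to 22.2 ± 1.36 FPKM (SD, n = 2; limma adjusted p = 0.00235). EZR, the membrane-actin linker bound by S100P, rose with a log2 fold change of 0.24 (limma adjusted p = 0.00998), and PPP5C, a phosphatase, with one of 0.30 (limma adjusted p = 0.0106). Neither of these passed under median-of-ratios scaling, with adjusted p = 0.112 for EZR and 0.052 for PPP5C. IQGAP1, a scaffold bound by S100P, was at 160.99 and 167.15 FPKM (Control) against 103.49 and 129.88 FPKM (siSIRT1), and fell with a log2 fold change of -0.50 ± 0.10 (SE; limma adjusted p = 0.00447; 0.0536 with no filter on low values). MYH9, the myosin bound by S100A4, was at 286.71 and 282.78 FPKM (Control) against 279.64 and 280.91 FPKM (siSIRT1), with a log2 fold change of -0.02 (limma adjusted p = 0.783). SUGT1, MDM2 and STUB1 did not pass the test either, with log2 fold changes of 0.32, -0.20 and 0.07. SUGT1 passed in 1 of the 10 alternative settings, the replicate block.

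Receptors for released S100 proteins did not pass the test. BSG, also called basigin, was at 888.13 and 870.88 FPKM (Control) against 885.02 and 827.41 FPKM (siSIRT1) (limma adjusted p = 0.692), and AGER was at 2.26 and 2.36 FPKM and at 3.98 and 2.40 FPKM (limma adjusted p = 0.209). BSG passed as lower in 3 of the 10 alternative settings. TLR4 and CD36 were at 0.41 FPKM or less in every library and were not tested. The plasminogen system, in which S100A10 acts as a cell surface receptor, had 2 tested genes of 4 described here, of which 1 fell. PLAU, or urokinase, was at 187.67 and 184.22 FPKM (Control) against 115.52 and 113.12 FPKM (siSIRT1), with a log2 fold change of -0.70 ± 0.06 (SE; limma adjusted p = 6.07e-05). PLAUR, the urokinase receptor, had a log2 fold change of 0.10 (limma adjusted p = 0.598), and PLAT and PLG were at 0.55 FPKM or less.

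**Figure D4:**
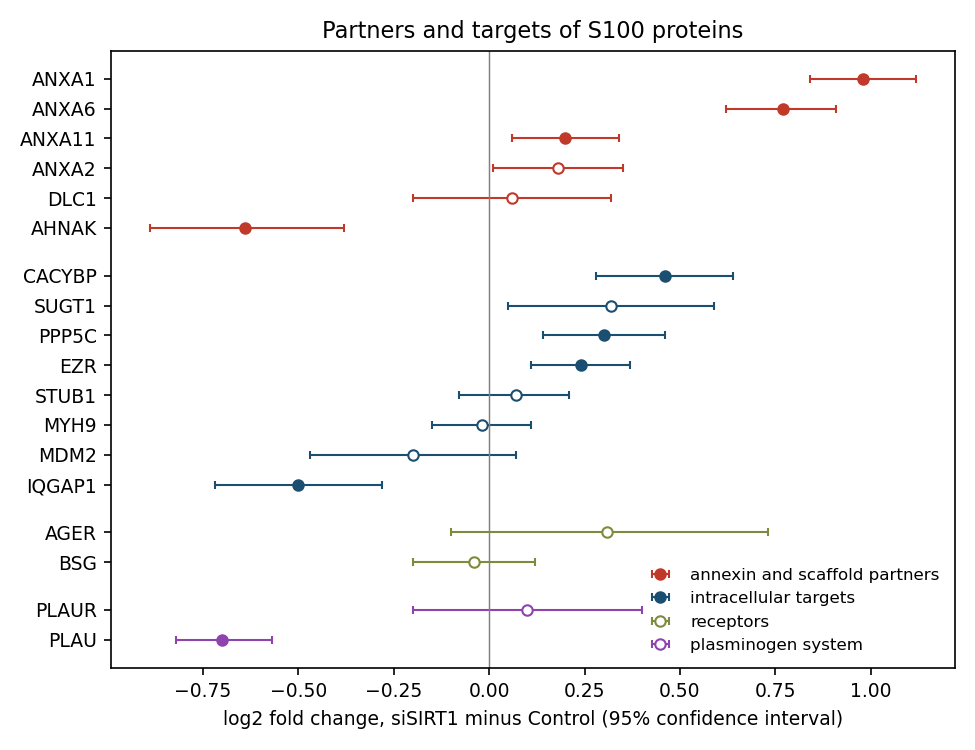
Log2 fold change, siSIRT1 minus Control, with 95% confidence intervals, of the tested genes for annexins and scaffolds (red), intracellular targets (blue), receptors (green) and the plasminogen system (purple). Filled points passed the limma test; among those shown, ANXA1 at 0.98 lies farthest above 0 and PLAU at -0.70 farthest below.

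Other members of the calcium-sensing families were set beside the 10 genes. Of 11 further S100 and fused-type S100 genes in the tables, 10 were below the expression filter, and S100A9, S100A7, S100A7A, S100G and S100Z were each at 0 in at least 3 of the 4 libraries. The highest of these 10 was FLG, or filaggrin, at 0.64 to 0.96 FPKM. S100A1, a neighbour of S100A13 on the opposite strand, fell from 5.66 ± 1.10 to 3.61 ± 0.368 FPKM (SD, n = 2; limma adjusted p = 0.0205), but did not pass with no filter on low values (adjusted p = 0.0892) or without Control replicate 2 (adjusted p = 0.188). Among 21 tested EF-hand proteins outside the family, 4 rose and 6 fell, beside 24.0% higher and 13.1% lower over all genes tested. Their median log2 fold change was -0.07, against 0.07 over all genes tested. CALM3, a calmodulin gene, rose (log2 fold change 0.49, limma adjusted p = 0.000449). CALM2 rose by 0.22 on the log2 scale (limma adjusted p = 0.037) but passed in only 2 of the 10 alternative settings. It did not pass with the length trend removed (adjusted p = 0.511). CAPN1, a calpain protease, rose (0.47, limma adjusted p = 0.000394), as did SRI, or sorcin (0.40, limma adjusted p = 0.00746). Those that fell were EFHD2, ACTN4, SDF4, CALU, RCN1 and RCN2, with log2 fold changes of -0.61 to -0.19. CALU, RCN1 and RCN2 did not pass in the fit without the mean-variance trend (adjusted p = 0.114, 0.0791 and 0.0881), and SRI and ACTN4 did not pass with no filter on low values (adjusted p = 0.0518 and 0.0573).

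Of 14 other markers of pancreatic cancer 10 were tested, of which 2 rose and 3 fell, beside 24.0% higher and 13.1% lower over all genes tested. The median log2 fold change of these 10 was -0.02. MUC4, MUC5AC, CEACAM6 and CLDN18 were below the expression filter. Of these, MUC4, MUC5AC and CEACAM6 were lower in siSIRT1 with no overlap, and CLDN18 overlapped between the groups. TSPAN8, a tetraspanin, was at 1.34 and 0.82 FPKM (Control) against 4.90 and 4.65 FPKM (siSIRT1) (log2 fold change 1.48, limma adjusted p = 0.000204). KRT19, a ductal keratin, rose with a log2 fold change of 0.25 (limma adjusted p = 0.0178). It passed in only 4 of the 10 alternative settings, and not under median-of-ratios scaling (adjusted p = 0.165). MSLN (mesothelin), PSCA and LCN2 fell, with log2 fold changes of -1.09, -0.97 and -0.77 (limma adjusted p = 0.000311, 0.000657 and 0.00237). These low markers were at 4.05 to 5.43 FPKM in Control and at 1.62 to 2.46 FPKM in siSIRT1.

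Genes around the S100 loci changed in both directions as well. Of 51 other genes that start within 500 kb of an S100 start, 32 were tested, 11 rose, 5 fell and 16 did not pass. Over all genes tested, 24.0% were higher and 13.1% lower. The median log2 fold change was 0.13 for these neighbours, against 0.07 over all genes tested. Of the genes directly beside the members, those that passed the test were lower in siSIRT1. S100A1, next to S100A13, was such a gene (limma adjusted p = 0.0205), with the limits given above. THEM4, next to S100A10, had means of 6.67 FPKM in Control and 4.52 FPKM in siSIRT1 and fell (limma adjusted p = 0.00902), but did not pass without Control replicate 1 (adjusted p = 0.0843). MRFAP1, next to S100P, had means of 49.0 and 31.0 FPKM and fell (limma adjusted p = 0.000262). MRFAP1L1, on the other side of S100P, had means of 14.7 and 17.0 FPKM (limma adjusted p = 0.0901). TCHH, S100A5 and S100A7, which also border the members, were at 0.53 FPKM or less in every library.

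The siRNA listed for SIRT1 was compared with the S100 transcripts, since the seed of a siRNA (bases 2 to 8 of its guide strand) can pair with other transcripts. Its target lies in the coding sequence of SIRT1 across the junction of exons 5 and 6 of 9, between 69666687 and 69667813 of chromosome 10 in GRCh37, on the plus strand. The guide, taken as the complement of the listed strand, is shown with the seed in capitals.
siSIRT1 guide strand: uGCAAAGGaaccaugacac
The letters that pair with this seed, CCTTTGC, were present once in the canonical transcript of S100A13, in its coding sequence in exon 2 of 3 at 153598878 to 153598884 of chromosome 1, and were not present in the other 9. The longest stretch shared with the listed strand was 8 bases in S100A13 and in S100A4, and 7 bases in S100A2 and S100A3. S100A13 was among the genes that rose, but it did not pass with the length trend removed (log2 fold change 0.07, limma adjusted p = 0.425). Of 1441 canonical transcripts no longer than the longest of the S100 transcripts, 9.09% held these letters. A seed match is a description of the sequence, and its part in any value was not tested.

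Another scaling between libraries moved the balance of all calls but not the list of S100 genes. Over all genes tested, 2930 were higher and 1591 lower, with 64.8% of calls higher, and under median-of-ratios scaling these were 2023 and 2053, with 49.6% higher. Quantile normalization gave 2279 and 1996, upper-quartile scaling 2202 and 2021, equal FPKM sums 2302 and 1842, and removal of the length trend 2309 and 2329. Under each of the 4 scalings S100A10, S100A11, S100A13 and S100P were higher and S100A4 and S100A16 were lower. Relative to the median shift of 0.07 over all genes, median-of-ratios scaling gave S100A10 a log2 fold change of 0.66, S100A11 one of 0.63, S100A13 one of 0.30, S100A4 one of -0.77 and S100A16 one of -0.44.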

How the data were processed

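PANC-1 RNA was extracted with Trizol and sequenced as 2 Control and 2 siSIRT1 libraries. The authors deposited FPKM values per gene, 1 table per library, with Entrez identifiers and symbols. The submitters' processing notes name Bowtie2, HISAT, RSEM and ChIPseeker without roles or versions, and the genome build and the strand setting are not given in the sources used here. FPKM divides by transcript length and library total, so abundant genes that change shift the others.

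Genes whose mean reached 1 FPKM were tested on log2(FPKM + 1), a scale that understates the change of low genes, with limma 3.58.1 (lmFit, eBayes with trend, two-sided) in R 4.3.3. The fit was tested on simulated data with independent noise and without a length trend, a scaling shift or counting error. That simulation therefore does not bear on these features of the data. Depth was estimated from the steps of 1 read in 59 to 73 single-exon genes per library and is approximate. Canonical lengths and places came from GENCODE release 44 on GRCh37, with lengths for 15880 of 16878 genes, and promoters from RefSeq. Alternatives were a pseudocount of 0.1, no filter, 4 scalings, eBayes without trend, the replicate number as a block, each library left out, and removal of the length trend (lowess span 0.3) with and without the block. Ranges over 10 alternatives leave out the fits without a library.

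The 10 genes, the lists of partners, targets, receptors and other genes, and the alternatives were chosen with earlier results of these data known. All 10 genes are named. Of the other lists, genes that passed the test are named, or for lists with under 3 such genes those with the highest mean. Neighbours directly beside a member are named. Further genes named were chosen after their values were seen. Of the listed symbols, S100A7L2, S100A8, S100A12, S100B, RPTN, TCHHL1, CRNN, INS and GCG were not analysed here. A few other genes of the partner and calcium sensor lists are not reported here.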

Additional observations from a re-analysis of the deposited data

How the results depend on the processing

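Of the 10 S100 genes, 6 passed the test, and 5 to 6 did when a single library was left out. The loss was S100A16 without Control replicate 1. S100A13 lost and S100A6 gained its call with the length trend removed, also with the replicate block (adjusted p = 0.395 and 9.82e-05). The remaining S100 calls and directions past the threshold held under all alternatives run, and the adjusted p ranged from 4.4e-08 to 0.00758 for S100A4, from 5.08e-08 to 0.0115 for S100A10 and from 1.04e-07 to 0.0155 for S100A11. The fitted log2 fold change of S100P ran from 1.19 to 3.4 with the setting. Its calls are not separate support for a rise, since it reached the filter only through its siSIRT1 values. SIRT1 passed in every fit. Over all genes, 4521 passed, with 2691 to 4608 when a library was left out (2744 without Control replicate 1 and 2691 without Control replicate 2). Of the genes on the 7 other lists, 25 passed, with 13 to 28 when a library was left out (16 without Control replicate 1 and 13 without Control replicate 2). Without Control replicate 2, 12 lost their call (ACTN4, ANXA11, CALM2, CALU, EZR, KRT19, PPP5C, RCN1, RCN2, S100A1, SDF4 and SRI), and without Control replicate 1 the same genes did except PPP5C, S100A1 and SRI. ANXA11, CALM2 and S100A1 lost it without siSIRT1 replicate 1 and RCN2 without siSIRT1 replicate 2. CAPNS1 passed without siSIRT1 replicate 1, and AGER, ANXA2, CIB1 and SUGT1 without siSIRT1 replicate 2. Same-numbered libraries shared little beyond the number (correlation of their deviations 0.123). With the replicate number as a block, 6 S100 genes and 5393 genes in all passed, and no S100 call changed. The block lowered the limma adjusted p of S100A4 from 0.000105 to 4.4e-08 and that of S100A10 from 0.000168 to 5.08e-08. At these depths S100A14 and S100P rest on 1 to 19 reads a group.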
